A study of Mus musculus with 48 samples.

Results

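The 55 genes described here encode the mitotic kinases, the kinetochore and its checkpoint, the mitotic kinesins, the proteins of the spindle and of cytokinesis, the condensin and chromosome proteins, and the regulators of mitotic entry and exit. The list was set by gene name with no threshold on a measured value, at a time when earlier results of these data were known. On the array, 54 of the 55 were read by a probe set annotated to a single gene symbol, out of 18964 protein-coding genes measured this way; Ncapg, a condensin subunit, lay only on a probe set shared with another gene and was not analysed here. All 54 passed the filter on dim probe sets, which left 11565 genes for testing. The cells were 4T1, a mammary carcinoma line of BALB/c mice, hybridized to 48 Affymetrix arrays. TV-LuM sub-clones came from lung metastases after injection into the tail vein, at day 14 (2 sub-clones) and day 38 (1 sub-clone), and their reporter is not named in the labels. AxLN-LuM sub-clones came from lung metastases of mice injected in the axillary lymph node, at day 14 (2 sub-clones), day 36 (1 sub-clone) and day 43 (1 sub-clone). AxLN sub-clones came from the injected lymph node itself, with tumor numbers 1 and 2 at day 14 and again at day 7 (4 sub-clones). Tumors were excised to grow the cells, and the labels do not say what a number repeated on different days shares. MFP sub-clones came from 2 mammary fat pad tumors at day 28. AxLN and AxLN-LuM cells carry mCherry with Renilla luciferase (mCh/rL), MFP cells carry GFP with firefly luciferase (GFP/fL), and the 2 parental lines that carry these reporters (4 arrays each) are the baseline.

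Each sub-clone was grown out of minced tissue in 6-thioguanine, which spares 4T1 cells and kills host cells, and RNA was taken from subconfluent cultures without any treatment. All values therefore describe cultured cells, not tumors in place. A sub-clone has 3 arrays, each a separate culture, and MFP tumor 1 has 4. The sample titles mark 7 arrays as removed: all 3 of AxLN-LuM 5 at day 14, all 3 of AxLN 1 at day 14, and 1 of MFP 1. Group comparisons use the 11 remaining sub-clones, and values with the sub-clones marked removed put back stand beside them. Values are log2 ratios: log2 intensity minus the parental mean (GFP/fL and mCh/rL arrays that shared the plate), averaged over the arrays of a sub-clone. The number of sub-clones, 2 or 3 a group, limits the precision of every group comparison. A bulk culture with fewer dividing cells cannot be told apart from one with less mitotic mRNA in each cell. In a growth assay of the ex vivo clones, the paper reports quicker division in AxLN than in MFP, AxLN-LuM or tail vein sub-clones. How that growth relates to the mRNA levels given here was not tested.

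As background, mitosis is driven by kinases that are switched on at the end of G2: Plk1 and Aurka build the spindle poles, Aurkb corrects faulty attachments, and Bub1, Bub1b and Ttk hold the checkpoint until each kinetochore is bound by microtubules. Cdc20 then turns on the anaphase-promoting complex, securin (Pttg1) is destroyed and separase (Espl1) cuts cohesin. Most of these genes are transcribed late in the cell cycle, through Mybl2 (B-Myb) in the MuvB complex and then Foxm1, so their mRNA levels in a culture go with the share of cells in G2 and M phase. Promoters of this class are known for the cell cycle genes homology region (CHR), with the core TTTGAA, often beside CCAAT boxes bound by NF-Y.

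A promoter window of 300 bases, from 250 before to 50 after the annotated start (RefSeq, build GRCm38.p6), was on hand for 44 of the 55 genes. TTTGAA, read on both strands, stood in 33 of the 44 windows (75%), against 11.4% of the 9400 windows of genes tested and 18.1% of all 27025 windows. CCAAT stood in 30 (68.2%), against 38.6% of genes tested, and both motifs in 27 (61.4%), against 4.89%. TTTAAA, a variant of the CHR core and its own reverse complement, stood in 22.7% of the windows and the E2F-like TTGGCGC in 13.6%, against 8.57% and 4.37% of genes tested. Matches of different motifs overlapped in 2 places. In 28 of the genes measured on the array a TTTGAA lay within 50 bases of the start, as it did in Ncapg, 30 bases before it. In all, 5 windows held none of the 4 motifs. The sequences below are, for each class, that of the gene with the largest AxLN difference among those whose window holds both motifs, followed by Nuf2 and Mybl2, whose windows hold none. Each runs 5′ to 3′ along the gene's strand, with each of the 4 motifs, on either strand, in capitals.
Plk1 (chr7:122159185-122159484, plus strand): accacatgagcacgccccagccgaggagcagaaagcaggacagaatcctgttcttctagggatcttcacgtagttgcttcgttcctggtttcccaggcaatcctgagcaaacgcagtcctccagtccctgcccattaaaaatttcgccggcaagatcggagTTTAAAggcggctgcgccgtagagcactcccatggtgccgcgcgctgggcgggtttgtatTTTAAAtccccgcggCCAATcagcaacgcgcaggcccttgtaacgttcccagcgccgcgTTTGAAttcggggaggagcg
Spc25 (chr2:69206164-69206463, minus strand): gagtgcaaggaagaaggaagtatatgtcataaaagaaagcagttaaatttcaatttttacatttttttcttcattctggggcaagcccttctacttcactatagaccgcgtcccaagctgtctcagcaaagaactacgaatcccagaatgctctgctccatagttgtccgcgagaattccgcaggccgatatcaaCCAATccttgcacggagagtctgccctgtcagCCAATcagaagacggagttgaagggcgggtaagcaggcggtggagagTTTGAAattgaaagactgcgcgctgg
Kif14 (chr1:136467598-136467897, plus strand): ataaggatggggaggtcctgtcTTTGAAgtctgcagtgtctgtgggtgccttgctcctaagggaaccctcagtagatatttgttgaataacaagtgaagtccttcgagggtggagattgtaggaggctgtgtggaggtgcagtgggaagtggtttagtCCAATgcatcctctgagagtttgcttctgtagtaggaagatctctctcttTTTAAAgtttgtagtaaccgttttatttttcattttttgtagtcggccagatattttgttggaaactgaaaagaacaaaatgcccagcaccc
Fam83d (chr2:158767849-158768148, plus strand): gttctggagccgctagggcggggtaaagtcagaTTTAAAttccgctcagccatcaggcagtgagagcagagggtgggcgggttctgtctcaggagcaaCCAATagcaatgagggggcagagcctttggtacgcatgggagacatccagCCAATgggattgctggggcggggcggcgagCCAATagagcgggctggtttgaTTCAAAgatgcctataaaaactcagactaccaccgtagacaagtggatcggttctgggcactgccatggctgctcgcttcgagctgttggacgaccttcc
Ncapd2 (chr6:125191537-125191836, minus strand): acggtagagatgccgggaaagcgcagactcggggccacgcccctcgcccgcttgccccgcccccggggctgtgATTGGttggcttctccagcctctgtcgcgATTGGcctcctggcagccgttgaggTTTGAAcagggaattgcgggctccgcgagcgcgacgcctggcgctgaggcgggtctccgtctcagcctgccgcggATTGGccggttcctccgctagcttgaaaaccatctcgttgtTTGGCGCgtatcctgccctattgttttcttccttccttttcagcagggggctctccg
Espl1 (chr15:102296043-102296342, plus strand): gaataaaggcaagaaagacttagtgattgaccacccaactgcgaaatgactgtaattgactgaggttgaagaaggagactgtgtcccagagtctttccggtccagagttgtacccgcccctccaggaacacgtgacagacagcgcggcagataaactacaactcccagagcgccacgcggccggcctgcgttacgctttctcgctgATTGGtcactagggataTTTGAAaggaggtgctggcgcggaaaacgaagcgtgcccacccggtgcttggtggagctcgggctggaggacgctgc
Nuf2 (chr1:169531415-169531714, minus strand): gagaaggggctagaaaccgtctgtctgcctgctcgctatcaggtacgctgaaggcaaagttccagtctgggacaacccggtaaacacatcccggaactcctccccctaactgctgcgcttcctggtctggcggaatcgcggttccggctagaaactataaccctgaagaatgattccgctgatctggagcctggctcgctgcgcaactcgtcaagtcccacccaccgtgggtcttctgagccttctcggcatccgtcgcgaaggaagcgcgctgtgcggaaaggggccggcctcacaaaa
Mybl2 (chr2:163054385-163054684, plus strand): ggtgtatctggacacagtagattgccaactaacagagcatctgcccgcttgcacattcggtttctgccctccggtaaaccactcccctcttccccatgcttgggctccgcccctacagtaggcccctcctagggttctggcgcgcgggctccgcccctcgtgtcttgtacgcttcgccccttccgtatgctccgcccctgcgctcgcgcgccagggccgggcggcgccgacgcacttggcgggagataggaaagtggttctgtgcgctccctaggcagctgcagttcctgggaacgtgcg
TTTGAA lies within 50 bases of the start in Plk1, Spc25, Fam83d and Espl1, but 123 bases before it in Ncapd2 and 228 in Kif14. Fam83d has 3 CCAAT boxes upstream of a TTTGAA on the opposite strand. A match is a description of the letters and no evidence of binding.

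The day 7 lymph node sub-clones and AxLN-LuM 5 d14 had the lowest medians of these mRNAs, and cultures of a sub-clone lay close together. The median of the 54 genes was -0.12, -0.26 and -0.11 in TV-LuM 1 d14, TV-LuM 2 d14 and TV-LuM 1 d38. It was 0.04, -0.11 and -0.02 in AxLN-LuM 1 at d14, d36 and d43, and -1.68 in AxLN-LuM 5 d14. In the lymph node it was -0.04 in AxLN 1 d14 against -0.43 in AxLN 1 d7, and -0.22 in AxLN 2 d14 against -0.61 in AxLN 2 d7. It was 0.05 in MFP 1 and -0.05 in MFP 2, with the parental mCh/rL and GFP/fL lines at -0.03 and 0.03. AxLN 1 d7, AxLN 2 d7 and AxLN-LuM 5 d14 thus stood below all others. Single arrays had medians from -0.44 to -0.42 in AxLN 1 d7, from -0.62 to -0.59 in AxLN 2 d7 and from -1.71 to -1.61 in AxLN-LuM 5 d14, and the median over all 11565 genes lay within 0.05 of 0 in each sub-clone. The root mean square SD between cultures of a sub-clone over the 54 genes was 0.061 to 0.119.

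**Figure D1:**
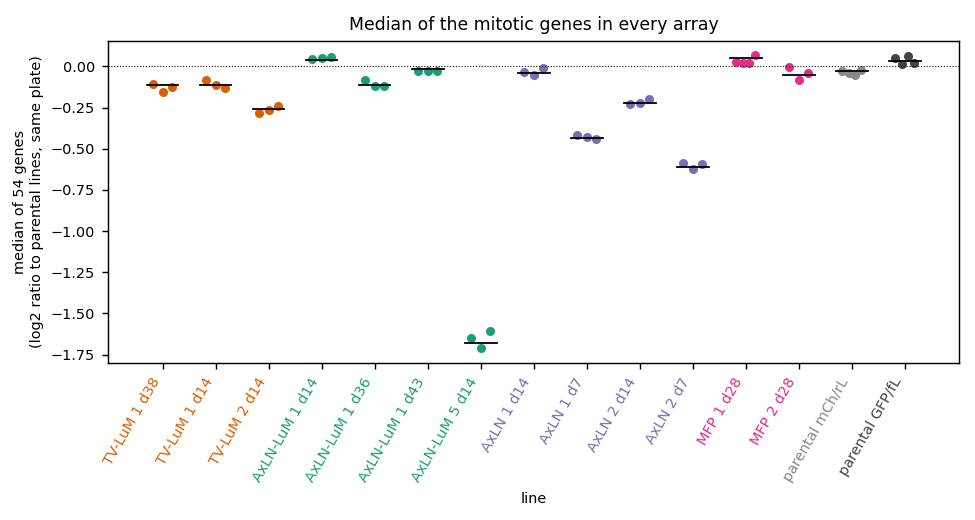
Median of the 54 mitotic genes (vertical axis, log2 ratio to the parental arrays of the plate) in each of the 48 arrays, 1 point per array, by line; the bar is the median of the line's mean values. AxLN-LuM 5 d14 sits at -1.68, AxLN 2 d7 at -0.61 and AxLN 1 d7 at -0.43, and the arrays of each line lie close together.

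Every one of the 54 genes was below the parental mean in AxLN-LuM 5 d14, AxLN 1 d7 and AxLN 2 d7, against 46.1%, 53% and 53.9% of all genes tested. In the other sub-clones 21 to 46 of the 54 were below it. AxLN-LuM 5 d14 was the lowest of the 13 sub-clones for 53 of the 54 genes, against 14.1% of all genes, and behind it came AxLN 2 d7 for 36 of these and AxLN 1 d7 for 7. Over the sub-clones, 27 of the 54 genes were below the parental mean in at least 10 of 13, against 23.4% of all genes tested.

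**Figure D2:**
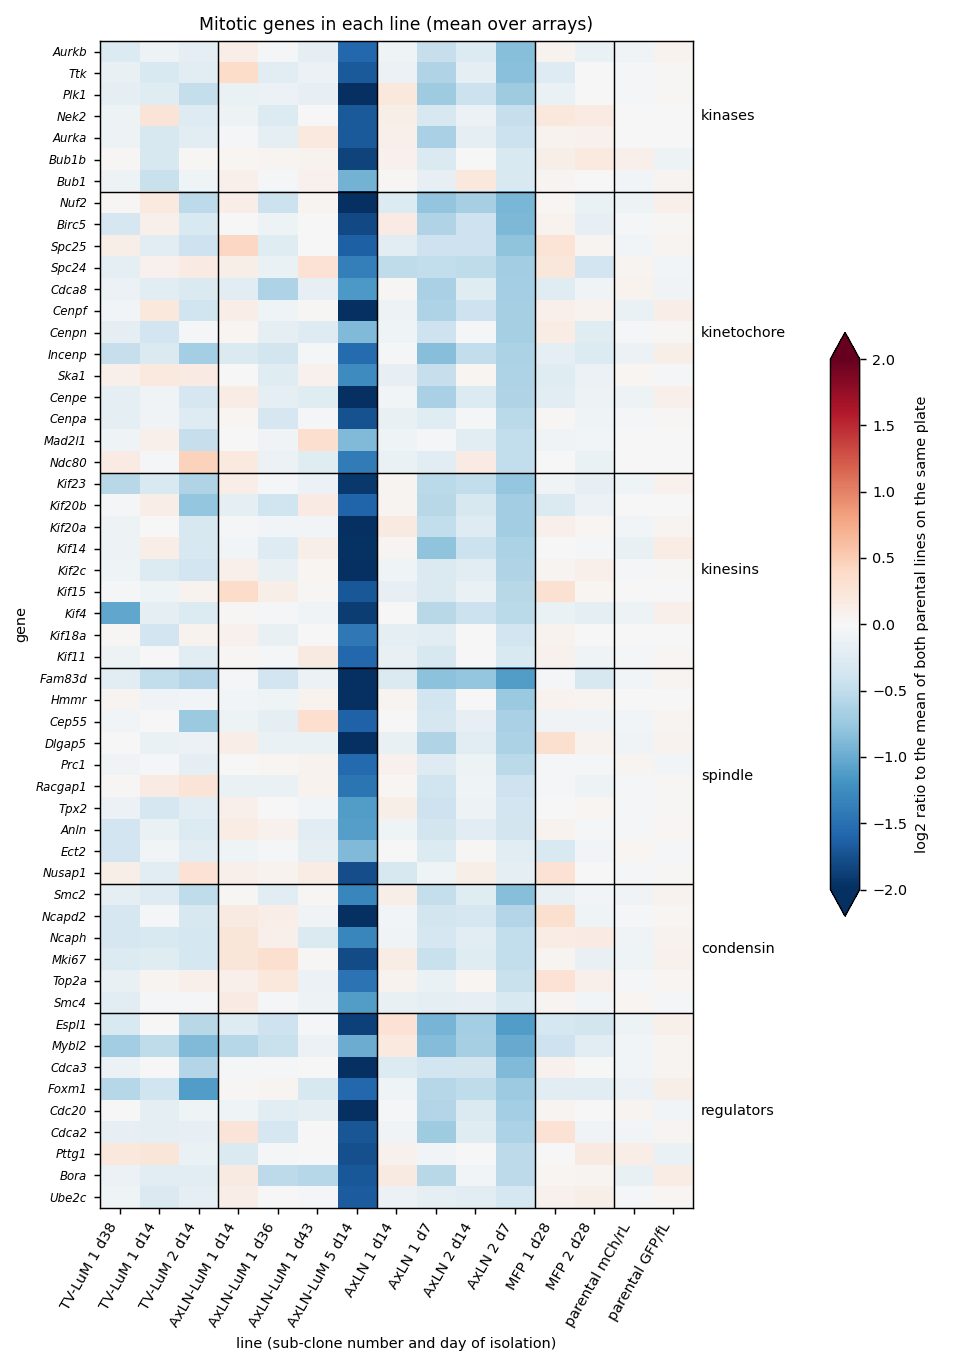
Log2 ratio to the parental arrays of the plate (color, mean over a line's arrays, clipped at -2 and 2) for 54 mitotic genes in 6 classes (rows) and 15 lines (columns). The AxLN-LuM 5 d14 column is dark blue in every class, the day 7 AxLN columns are paler blue throughout, and the MFP and other AxLN-LuM columns are close to white.

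With cultures as replicates, the test of each sub-clone against both parental lines (limma, Benjamini-Hochberg over all 11565 genes) measures only the spread between cultures. By it 53 of the 54 genes fell and none rose in AxLN 2 d7 (29.2% of all genes fell), and 51 fell in AxLN 1 d7 (25.6%). In AxLN 2 d14, 36 fell and 2 rose (26.1% and 24.6% of all genes), while in AxLN 1 d14, 13 fell and 6 rose (14.5% and 17%). Of the TV-LuM sub-clones, 26 fell in 1 d14, 39 in 2 d14 and 27 in 1 d38 (21.2%, 26.9% and 27.9% of all genes), and 6, 5 and 2 rose (19.3%, 26.6% and 23.4%). AxLN-LuM 1 showed 10, 26 and 16 that fell at d14, d36 and d43 (21.7%, 24% and 22.5%), and 18, 3 and 6 that rose (23.5%, 22.2% and 19%). In MFP 1 and MFP 2, 12 and 11 fell (28% and 19.5%), and 16 and 4 rose (26% and 18.9%). Shares of the 54 genes above the background for a fall were thus largest in the day 7 AxLN sub-clones and AxLN-LuM 5 d14, and most of the 54 genes also fell in AxLN 2 d14 and TV-LuM 2 d14.

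The first comparison asks how cells from the lymph node tumor differ from cells of the fat pad tumor and of the lung metastases that arose from the node. The AxLN sub-clones used came from day 7 or 14, MFP from day 28, and AxLN-LuM from day 14, 36 or 43. Only AxLN has sub-clones from day 7, so the group comparisons of AxLN with another site cannot tell site from day. Day 14 is shared by AxLN, AxLN-LuM and TV-LuM, but not by MFP. At that day the median was -0.22 in AxLN 2 and -0.04 in the removed AxLN 1. It was 0.04 in AxLN-LuM 1 and -1.68 in the removed AxLN-LuM 5, and -0.12 and -0.26 in TV-LuM 1 and 2. No test compared sites at day 14 alone. MFP cells carry another reporter than AxLN and AxLN-LuM cells, so reporter changes along with site between them. All 54 genes were lower in AxLN than in the mean of AxLN-LuM and MFP, against 52.8% of all genes tested, with a median difference of -0.41 against -0.02 over all genes. By limma over 3 AxLN, 3 AxLN-LuM and 2 MFP sub-clones, 36 of the 54 had an unadjusted p under 0.05 and a lower value in AxLN, and none a higher one, against 5.86% and 5.21% of all genes. In 31 of the 54, all AxLN sub-clones lay below all of the others, against 5.85% of all genes, and in none did all lie above (4.09%). None of the 54 passed an adjusted p under 0.05, nor did any gene on the array (0 of 11565; lowest limma adjusted p 0.278), so each single difference below is a value that did not pass. No share of all genes is given for the fit without AxLN 2 d7, so a general loss of power cannot be set apart there. The count of 36 was 22 in that fit. It was 17 with AxLN 1 d14 put back and 0 with AxLN-LuM 5 d14 put back (2.46% and 2.18% of all genes), where the median difference became -0.28 and -0.19. Within plates the median was -0.45 on plate 1 and -0.42 on plate 2, with 53 of the 54 genes lower on each. Of all 11565 genes, 6171 and 5929 were lower. Plate 1 holds 1 AxLN sub-clone used, 2 MFP and 2 AxLN-LuM, and plate 2 holds 2, 1 and 1. MFP 1 lies on both plates, so the plates are not independent.

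**Figure D3:**
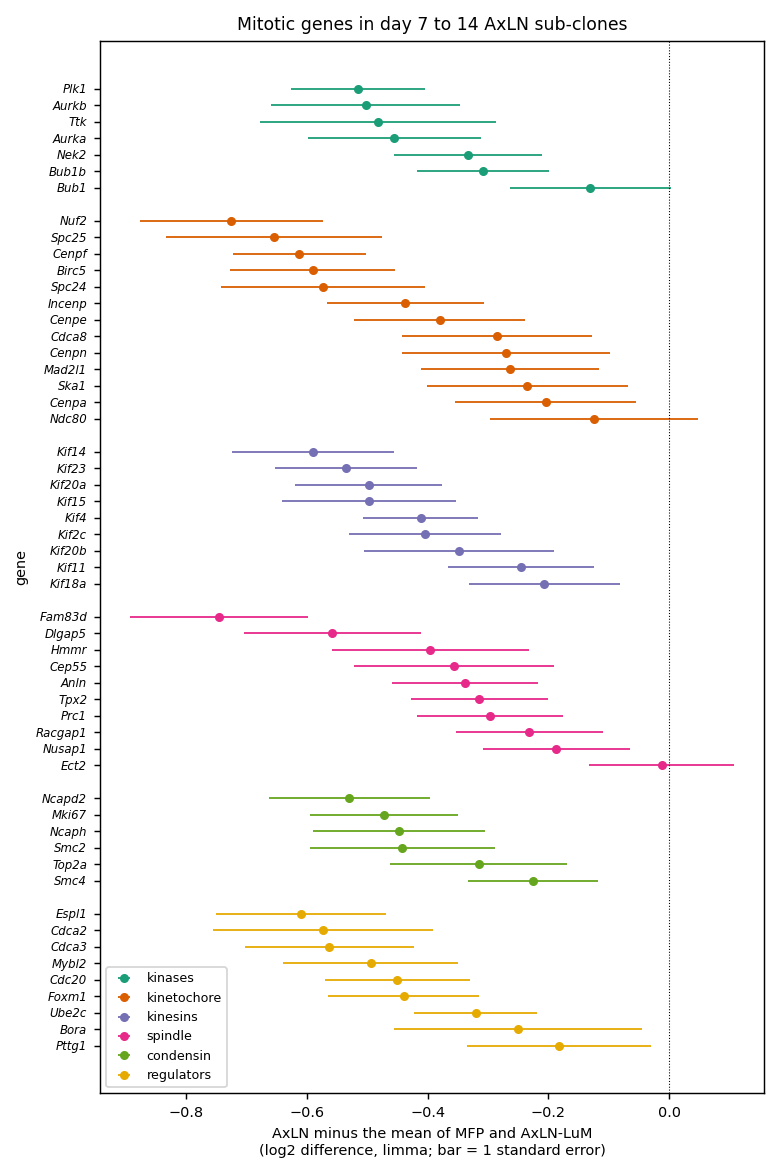
Difference between AxLN and the mean of MFP and AxLN-LuM (horizontal axis, log2, limma estimate with 1 standard error) for each of the 54 genes, colored by class and sorted within it. All points lie left of 0, from -0.75 for Fam83d to -0.01 for Ect2.

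Values by sub-clone are given below in 1 order: AxLN as 1 d14 (removed by the study), 1 d7, 2 d14 and 2 d7, AxLN-LuM 1 as d14, d36 and d43, MFP as tumor 1 and tumor 2, and TV-LuM as 1 d14, 2 d14 and 1 d38. MFP 1 values there are over all 4 of its arrays. Among the mitotic kinases the median difference was -0.45, with 6 of 7 at an unadjusted p under 0.05 and 3 without overlap between groups. Plk1, the polo-like kinase of spindle poles and cytokinesis, had log2 ratios of 0.21, -0.71, -0.42 and -0.71 in AxLN, against -0.13, -0.11 and -0.16 in AxLN-LuM 1 and -0.13 and -0.01 in MFP. The TV-LuM values were -0.24, -0.48 and -0.20, and that of AxLN-LuM 5 d14 was -2.30. All AxLN sub-clones used by the study lay below every AxLN-LuM 1 and MFP sub-clone, and the removed AxLN 1 d14 lay above them. The difference for Plk1 was -0.52 (SE 0.11, limma adjusted p = 0.278), or 1.43 times less in AxLN. In intensity, Plk1 was at 718 in AxLN 1 d7 and 701 in AxLN 2 d7, against 1060 and 1165 in MFP 1 and MFP 2. Aurkb, the kinase of the chromosomal passenger complex, had -0.09, -0.46, -0.28 and -0.86 in AxLN, against 0.13, -0.03 and -0.18 in AxLN-LuM 1 and 0.06 and -0.14 in MFP. Its level was -0.10, -0.18 and -0.27 in TV-LuM and -1.56 in AxLN-LuM 5 d14. It differed by -0.50 (SE 0.16), and Ttk and Aurka by -0.48 and -0.45. Bub1, the scaffold kinase of the checkpoint, had the smallest difference of the kinases, -0.13 (SE 0.13). Its ratios were 0.02, -0.16, 0.20 and -0.30 in AxLN, against 0.10, -0.02 and 0.08 in AxLN-LuM 1 and 0.05 and 0.01 in MFP, so the groups overlapped. For TV-LuM the values were -0.45, -0.09 and -0.10, and for AxLN-LuM 5 d14 -0.94. Plk1, Cdca3, Fam83d and Espl1 are named because the study displays them as lower in AxLN on these same samples, so they are no independent sign of that direction.

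In the kinetochore class the median was -0.38, with 7 of 13 at an unadjusted p under 0.05 and 7 without overlap. Nuf2 and Spc25, both subunits of the Ndc80 complex that holds microtubules, had the largest differences, -0.73 (SE 0.15) and -0.65 (SE 0.18). Nuf2 had ratios of -0.28, -0.78, -0.67 and -0.92 in AxLN, against 0.13, -0.42 and 0.05 in AxLN-LuM 1 and 0.03 and -0.13 in MFP. In TV-LuM it was at 0.19, -0.52 and 0.02, and in AxLN-LuM 5 d14 at -2.34. The AxLN values used by the study all lay below those of AxLN-LuM 1 and MFP, with AxLN-LuM 1 d36 the nearest. Spc25 had -0.21, -0.41, -0.42 and -0.80 in AxLN, against 0.42, -0.25 and -0.01 in AxLN-LuM 1 and 0.28 and 0.06 in MFP. The TV-LuM values were -0.23, -0.42 and 0.12, and that of AxLN-LuM 5 d14 was -1.63. Cenpf, a large protein of the outer kinetochore, differed by -0.61 (SE 0.11) and had the lowest unadjusted p of the 54 genes (limma p = 0.000524, adjusted p = 0.278). Survivin (Birc5) and Incenp, partners of Aurkb in the passenger complex, differed by -0.59 and -0.44, and borealin (Cdca8), their other partner, by -0.29 (SE 0.16). Ndc80 itself, which pairs with Nuf2 to form the arm that grips the microtubule, had the smallest difference of the class, -0.12 (SE 0.17), and it was 0.03 without AxLN 2 d7. It had -0.13, -0.22, 0.16 and -0.49 in AxLN, against 0.20, -0.11 and -0.23 in AxLN-LuM 1 and -0.01 and -0.14 in MFP. Its level was -0.03, 0.46 and 0.16 in TV-LuM and -1.40 in AxLN-LuM 5 d14. Within the Ndc80 complex the differences were thus -0.73 for Nuf2, -0.65 for Spc25, -0.57 for Spc24 and -0.12 for Ndc80.

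The kinesins had a median of -0.41, with 6 of 9 at an unadjusted p under 0.05 and 6 without overlap. Kif14 and Kif23, motors of the central spindle and of cytokinesis, differed by -0.59 (SE 0.13) and -0.53 (SE 0.12). Kif14 had 0.05, -0.81, -0.43 and -0.63 in AxLN, against -0.05, -0.26 and 0.11 in AxLN-LuM 1 and 0.00 and -0.04 in MFP. For TV-LuM the values were 0.13, -0.32 and -0.10, and for AxLN-LuM 5 d14 -1.98. Kif23 had 0.05, -0.54, -0.49 and -0.77 in AxLN, against 0.14, -0.03 and -0.12 in AxLN-LuM 1 and -0.07 and -0.17 in MFP. In TV-LuM it was at -0.30, -0.60 and -0.56, and in AxLN-LuM 5 d14 at -1.93. For both motors the AxLN sub-clones used by the study lay below all of AxLN-LuM 1 and MFP. Kif20a and Kif15 were both at -0.50 and the chromokinesin Kif4 at -0.41. Kif11, the motor that pushes spindle poles apart, was at -0.24, and Kif18a, which restrains kinetochore microtubules, at -0.21 (SE 0.12). Kif18a had -0.20, -0.22, 0.01 and -0.39 in AxLN, against 0.08, -0.15 and 0.01 in AxLN-LuM 1 and 0.07 and -0.01 in MFP. The TV-LuM values were -0.38, 0.07 and 0.03, and that of AxLN-LuM 5 d14 was -1.42.

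In the spindle and cytokinesis class the median was -0.33, the smallest of the 6 classes, with 6 of 10 at an unadjusted p under 0.05 and 5 without overlap. It held both the largest and the smallest difference of the whole set. Fam83d, which recruits casein kinase 1 to the spindle, had ratios of -0.30, -0.82, -0.77 and -1.12 in AxLN, against -0.02, -0.38 and -0.12 in AxLN-LuM 1 and -0.04 and -0.31 in MFP. Its level was -0.49, -0.58 and -0.22 in TV-LuM and -2.54 in AxLN-LuM 5 d14. The difference was -0.75 (SE 0.15, limma adjusted p = 0.278), or 1.68 times less in AxLN, and no AxLN sub-clone used by the study overlapped AxLN-LuM 1 or MFP. Dlgap5 (HURP), which stabilizes spindle fibers, differed by -0.56 (SE 0.15). It had -0.16, -0.61, -0.21 and -0.63 in AxLN, against 0.14, -0.13 and -0.14 in AxLN-LuM 1 and 0.32 and 0.07 in MFP. For TV-LuM the values were -0.13, -0.12 and 0.01, and for AxLN-LuM 5 d14 -2.04. Ect2, the exchange factor that starts the cleavage furrow, was at -0.01 (SE 0.12), and its sign turned under 8 of the alternatives run. It had 0.01, -0.27, 0.02 and -0.21 in AxLN, against -0.08, -0.03 and -0.19 in AxLN-LuM 1 and -0.30 and -0.06 in MFP, which overlapped. In TV-LuM it was at -0.06, -0.22 and -0.38, and in AxLN-LuM 5 d14 at -0.88.

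Condensins and chromosome proteins had a median of -0.44, with 4 of 6 at an unadjusted p under 0.05, and the same number without overlap. Ncapd2, a condensin I subunit, differed by -0.53 (SE 0.13). It had -0.05, -0.37, -0.34 and -0.59 in AxLN, against 0.18, 0.13 and -0.07 in AxLN-LuM 1 and 0.32 and -0.08 in MFP. The TV-LuM values were -0.04, -0.32 and -0.33, and that of AxLN-LuM 5 d14 was -1.99. Mki67, the coat of mitotic chromosomes behind the Ki-67 stain, differed by -0.47 (SE 0.12) and had 0.15, -0.45, -0.24 and -0.49 in AxLN, against 0.24, 0.32 and 0.03 in AxLN-LuM 1 and 0.05 and -0.15 in MFP. Its level was -0.25, -0.35 and -0.28 in TV-LuM and -1.78 in AxLN-LuM 5 d14. For both genes the AxLN values used by the study were the lowest of AxLN, AxLN-LuM 1 and MFP. Top2a, the topoisomerase that untangles sister chromatids, was at -0.32 (SE 0.15). Smc4, a condensin ATPase, was at -0.23 (SE 0.11) and had -0.15, -0.20, -0.17 and -0.30 in AxLN, against 0.17, -0.02 and -0.10 in AxLN-LuM 1 and 0.06 and -0.05 in MFP. For TV-LuM the values were -0.04, -0.02 and -0.21, and for AxLN-LuM 5 d14 -1.11.

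Among the regulators the median was -0.45, with 7 of 9 at an unadjusted p under 0.05 and 6 without overlap. Espl1 (separase) differed by -0.61 (SE 0.14) and had 0.29, -0.93, -0.67 and -1.11 in AxLN, against -0.26, -0.41 and -0.02 in AxLN-LuM 1 and -0.35 and -0.36 in MFP. In TV-LuM it was at 0.00, -0.56 and -0.30, and in AxLN-LuM 5 d14 at -1.87. Cdca2, the phosphatase subunit that acts on mitotic chromatin, differed by -0.57 (SE 0.18) and had -0.07, -0.71, -0.24 and -0.64 in AxLN, against 0.25, -0.33 and 0.00 in AxLN-LuM 1 and 0.28 and -0.07 in MFP. The TV-LuM values were -0.20, -0.16 and -0.16, and that of AxLN-LuM 5 d14 was -1.71. Cdca3, a trigger of mitotic entry, differed by -0.56 (SE 0.14) and had -0.27, -0.38, -0.37 and -0.88 in AxLN, against -0.03, -0.03 and -0.01 in AxLN-LuM 1 and 0.08 and 0.02 in MFP. Its level was -0.01, -0.58 and -0.12 in TV-LuM and -2.09 in AxLN-LuM 5 d14. Espl1 and Cdca3 had no overlap between the AxLN sub-clones used by the study and the others, while AxLN 2 d14 overlapped for Cdca2. Cdc20, the activator of the anaphase-promoting complex, was at -0.45 (SE 0.12). Securin (Pttg1), the inhibitor of separase, was at -0.18 (SE 0.15) and had 0.08, -0.06, 0.00 and -0.52 in AxLN, against -0.29, -0.03 and -0.01 in AxLN-LuM 1 and 0.00 and 0.18 in MFP. For TV-LuM the values were 0.25, -0.13 and 0.21, and for AxLN-LuM 5 d14 -1.76. Separase and its inhibitor thus had the largest and the smallest difference of the class. Foxm1 and Mybl2 differed by -0.44 (SE 0.13) and -0.49 (SE 0.14).

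**Figure D4:**
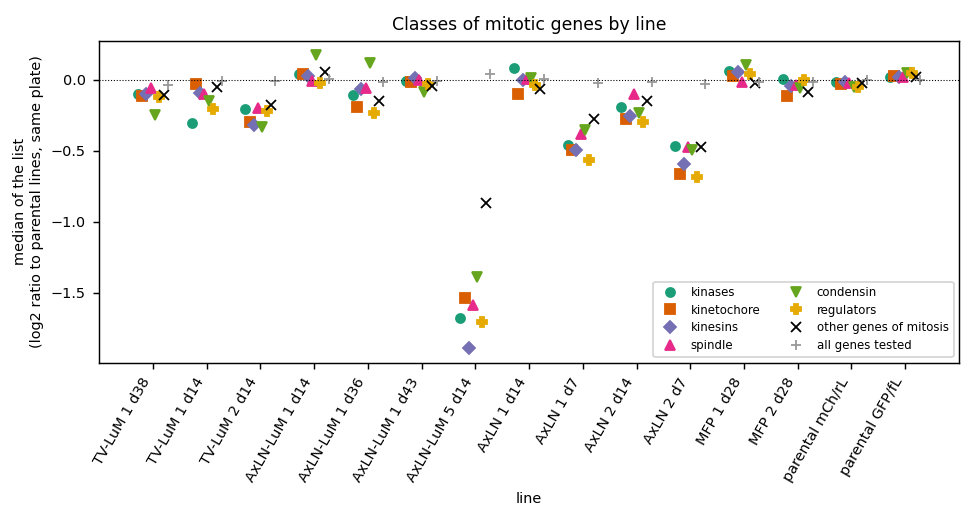
Median log2 ratio to both parental lines (vertical axis) of each of the 6 classes, of 69 other genes of mitosis and of all 11565 genes tested, by line. The 6 classes are all low in AxLN 2 d7 (between -0.68 and -0.47) and in AxLN-LuM 5 d14 (between -1.89 and -1.39), where the other genes of mitosis are at -0.87. They part in some other lines, as in AxLN-LuM 1 d36, from -0.23 for regulators to 0.12 for condensins and chromosome proteins.

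Set against MFP alone, AxLN was lower for 53 of the 54 genes (52.6% of all genes), with a median of -0.42 and 29 at an unadjusted p under 0.05 by limma (3.98% of all genes), and none was higher at that p (2.97%). The groups did not overlap for 41 of the 54, against 17.7% of all genes. Counts with a sub-clone left out are given here with no share of all genes. A loss particular to the 54 genes thus cannot be told from a general loss of power. Leaving out an MFP sub-clone leaves 1 in that group, so no count is given for that. The count of 29 was 15 without AxLN 2 d7 and 19 without AxLN 1 d7. It was 14 with AxLN 1 d14 put back (2.09% of all genes), where the median was -0.29. With AxLN-LuM 5 d14 put back, which adds to the spread of the same fit, it was 0 (1.88%). Ect2, the exception, was at 0.03. Within plates the median was -0.45 and -0.40. AxLN-LuM exceeded AxLN for all 54 genes, while 47.3% of all genes were lower there, with a median of 0.39 and 33 at an unadjusted p under 0.05 (6.14% of all genes), and none was lower at that p (5.76%). For 31 of the 54 all AxLN-LuM sub-clones lay above all AxLN ones (10.1% of all genes) and for none below (8.12%). The count of 33 was 16 without AxLN 2 d7, 22 without AxLN 1 d7 and 18 without AxLN-LuM 1 d14, and the median was 0.40 and 0.39 within plates. With AxLN 1 d14 put back the count was 13 (2.57% of all genes) and the median 0.27. Against the parental lines, AxLN was lower for all 54 genes (52.8% of all genes), with a median of -0.41 (-0.54 without AxLN 2 d14) and 34 at an unadjusted p under 0.05 (8.6% of all genes). The count of 34 was 13 with AxLN 1 d14 put back (2.65%), where the median was -0.30, and 1 with AxLN-LuM 5 d14 put back (5.68%). These comparisons share the AxLN sub-clones, so their directions are not independent. AxLN-LuM against MFP showed no common shift: 32 of the 54 genes were lower and 22 higher, the median was -0.03, and 0 had an unadjusted p under 0.05 (2.89% of all genes lower and 1.12% higher). The groups did not overlap for 6 that were lower and 2 that were higher (7.44% and 7.37% of all genes). None of the 54 passed the adjusted limma test in any of these comparisons. The 3 AxLN-LuM sub-clones in them are all named for lung metastasis 1, although their titles name a different source sample for each. With AxLN-LuM 5 d14 put back, the median of AxLN-LuM minus AxLN was -0.01 and that of AxLN-LuM minus MFP was -0.42, each with 0 of the 54 at an unadjusted p under 0.05. These counts have no share of all genes beside them, and that sub-clone adds to the spread of the fit. A general loss of power thus cannot be set apart there.

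AxLN-LuM 5 d14, whose arrays are marked removed, had the lowest mitotic mRNA of the series. Relative to both parental lines, all 54 genes fell, at limma adjusted p under 0.05 with cultures as replicates, against 26.7% of all genes that fell and 35.6% that rose. Such p-values measure only the spread between cultures of 1 sub-clone. Fam83d was at -2.54, Cenpf at -2.42, Nuf2 at -2.34, Plk1 at -2.30 and Cdc20 at -2.20 on the log2 scale. Plk1 was at an intensity of 233 in AxLN-LuM 5 d14, against 1147 in the parental mCh/rL line, and Fam83d at 58.0 against 350. Mki67 was at 547 against 1802, and Top2a at 619 against 1740. Ect2, Mad2l1 and Cenpn fell least, at -0.88, -0.88 and -0.89. By class the fall was deepest in kinesins (median -1.89) and smallest in condensins and chromosome proteins (-1.39), with the Kif20a motor at -2.18.

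Compared with AxLN-LuM 1 d14, isolated on the same day under another lung metastasis number, all 54 genes were lower in AxLN-LuM 5 d14 (47.3% of all genes), with a median of -1.68. The largest of these differences were -2.55 (SE 0.07) for Cenpf, -2.52 (SE 0.10) for Fam83d and -2.47 (SE 0.08) for Nuf2. Compared with AxLN 2 d7, the next lowest sub-clone, 53 of the 54 were lower at adjusted p under 0.05 (21.9% of all genes), with a median of -1.06. The exception was Mybl2, at -0.99 in AxLN-LuM 5 d14 and -1.01 in AxLN 2 d7 (difference 0.03, SE 0.06, limma adjusted p = 0.729). Mybl2 was thus at nearly the same level in both sub-clones, while the other genes were lower in AxLN-LuM 5 d14 by at least 0.22. Nusap1, a spindle fiber protein, differed most after Cenpf: -1.78 in AxLN-LuM 5 d14 and -0.18 in AxLN 2 d7. The first of these contrasts crosses plates, and contrasts between single sub-clones were chosen after the values had been seen.

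Within the lymph node, tumor numbers 1 and 2 each occur at day 14 and at day 7, with both days of a number on 1 plate. Under number 2 all 54 genes were higher at day 14 than at day 7, by a median of 0.37, and 52 rose at adjusted p under 0.05 with cultures as replicates (19.2% of all genes). Under number 1, whose day 14 arrays are marked removed, 51 were higher by a median of 0.44, of which 42 rose (28.7% of all genes), and 1, Nusap1, fell by 0.23. Of the genes with the largest rise, Hmmr, a spindle assembly factor, rose by 0.72 under number 2, followed by Ttk and Ndc80 at 0.65 each. Under number 1, Espl1 rose by 1.23 (SE 0.09), Mybl2 by 1.07 (SE 0.06) and Plk1 by 0.92 (SE 0.05). Incenp rose by 0.82 under number 1 and by 0.13 under number 2. Each time point is 1 sub-clone, so day and sub-clone cannot be told apart.

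In comparisons of group means, TV-LuM lay between AxLN and the other groups, but single sub-clones did not keep this order. TV-LuM 2 d14 had a median of -0.26, below AxLN 2 d14 (-0.22) and the removed AxLN 1 d14 (-0.04). TV-LuM 1 d14 (-0.12) and TV-LuM 1 d38 (-0.11) were near AxLN-LuM 1 d36 (-0.11). Every TV-LuM median lay above those of AxLN 1 d7 (-0.43) and AxLN 2 d7 (-0.61). Against AxLN, 51 of the 54 genes were higher in TV-LuM, while 50% of all genes were lower there, with a median of 0.21 (0.35 without AxLN 2 d14) and 15 at an unadjusted p under 0.05 (7.43% of all genes higher and 5.86% lower). With AxLN 1 d14 put back the median was 0.12, with 7 higher at an unadjusted p under 0.05 (5.84% of all genes). In 15 the groups did not overlap with TV-LuM above, and in none with TV-LuM below (11.1% and 9.4% of all genes). Nuf2 was 0.69 higher (SE 0.20), Espl1 0.62, Spc24 0.59, Kif14 0.53 and Ska1, part of the complex that tracks microtubule ends, 0.50. Against AxLN-LuM, 46 were lower in TV-LuM (51.5% of all genes), with a median of -0.14 and 7 at an unadjusted p under 0.05 (6.17% of all genes), and none was higher at that p (5.83%). The groups did not overlap for 11 that were lower and 1 that was higher (6.15% and 5.51%). Against MFP, 48 were lower (51.4% of all genes), with a median of -0.20 and 6 at an unadjusted p under 0.05 (5.43% of all genes), with none higher at that p (4.86%). Against the parental lines, 47 were lower (53.1% of all genes), with a median of -0.18 and 7 at an unadjusted p under 0.05 (4.62% of all genes). None of the 54 passed the adjusted limma test in these comparisons, and with AxLN-LuM 5 d14 put back the median against AxLN-LuM turned to 0.28. Within plates the median against AxLN-LuM was -0.09 and -0.16, and against AxLN 0.32 and 0.20.

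The 2 transcription factors of the set lay below its median in all 3 TV-LuM sub-clones. Foxm1, the forkhead activator of late cell cycle genes, had ratios of -0.41, -1.11 and -0.57 in TV-LuM 1 d14, TV-LuM 2 d14 and TV-LuM 1 d38, against 0.02, 0.06 and -0.32 in AxLN-LuM 1 at d14, d36 and d43. It was -1.57 in AxLN-LuM 5 d14, -0.09 in AxLN 1 d14 and -0.57 in AxLN 1 d7, -0.51 and -0.72 in AxLN 2 at d14 and d7, -0.23 in both MFP sub-clones and -0.12 in the parental mCh/rL line. All TV-LuM values lay below all AxLN-LuM 1 values (difference -0.62, SE 0.18, limma adjusted p = 0.328). Mybl2 had ratios of -0.51, -0.88 and -0.70 in the same TV-LuM sub-clones, against -0.56, -0.45 and -0.11 in AxLN-LuM 1, and these overlapped. It was 0.20 in AxLN 1 d14 and -0.87 in AxLN 1 d7, -0.67 in AxLN 2 d14 and -1.01 in AxLN 2 d7, and -0.41 and -0.23 in MFP 1 and MFP 2. Mybl2 was below the parental mean in 12 of 13 sub-clones. Of the 6 classes, condensins and chromosome proteins had the largest median difference between TV-LuM and AxLN-LuM, -0.28, with Mki67 at -0.49 (SE 0.12, limma adjusted p = 0.304), Ncaph at -0.35 and Ncapd2 at -0.31. Kif23 had no overlap between TV-LuM and AxLN-LuM 1 (difference -0.48, SE 0.13, limma adjusted p = 0.319). Kif4 at -1.04 in TV-LuM 1 d38 stood apart within TV-LuM, where the other sub-clones were at -0.20 and -0.27. In the other direction, Ndc80 was 0.46 in TV-LuM 2 d14.

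The parental lines themselves differed by small amounts in these genes. Of the 54 genes, 38 were lower in mCh/rL than in GFP/fL (50.3% of all genes), with a median of -0.06, and 7 fell at adjusted p under 0.05 by limma over 4 arrays each, against 6.63% of all genes. The 7 were Bora (-0.30), Kif14 (-0.30), Cenpf (-0.25), Incenp (-0.24), Cenpe (-0.20), Kif23 (-0.17) and Mki67 (-0.17), and Bub1b rose by 0.19 (6.21% of all genes rose). With each sub-clone's own parental line as the baseline, the median difference of AxLN from the mean of AxLN-LuM and MFP was -0.37.

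Across the 13 sub-clones the genes went together, as a description over points that share plates and a baseline. The correlation of a gene with the median of the others had a median of 0.95, from 0.60 for Mybl2 to 0.99 for Kif20a. Without AxLN-LuM 5 d14 it had a median of 0.80, from 0.21 for Ect2 to 0.95 for Fam83d. Of 73 other genes of mitosis, among them cyclins, centromere, cohesin and anaphase-promoting complex genes, 69 were measured; 62 of them were lower in AxLN than in the mean of AxLN-LuM and MFP, with a median of -0.26 and 24 at an unadjusted p under 0.05 (52.8% and 5.86% of all genes). Pmf1, a kinetochore subunit, was at -0.67 (SE 0.13), the mitotic kinases Pbk and Melk at -0.63 and -0.58, and Zwilch, of the complex that brings checkpoint proteins to kinetochores, at -0.58. None passed the adjusted test. Genes with a TTTGAA in the promoter window (32 measured) had a median AxLN difference of -0.41, against -0.33 for the 11 measured genes without one. In AxLN-LuM 5 d14 the medians were -1.69 and -1.68, so the 2 sets were at nearly the same level there.

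Markers of other cells were measured beside these values. The 5 markers of mammary carcinoma cells (Epcam, Cdh1 and keratins) were high in each line, with summed intensities of 9997 to 10399 in TV-LuM, 6315 to 8498 in AxLN-LuM, 6959 to 8479 in AxLN, 6400 to 7654 in MFP and 7425 to 8030 in the parental lines. Of 11 immune markers measured, 10 lay below the filter. Each of these 10 stayed between 2.88 and 8.31 in every line. The sum over all 11, Cd68 included, was 114 to 148 in TV-LuM, 81.8 to 295 in AxLN-LuM, 127 to 322 in AxLN, 109 to 190 in MFP and 112 to 147 in the parental lines. These sums thus differed mainly through Cd68. Cd68, the only immune marker above the filter, was at 246.5 in AxLN-LuM 5 d14, 199 in AxLN 1 d14, 158 in AxLN 1 d7, 273 in AxLN 2 d14 and 78.4 in AxLN 2 d7, against 99.5 in the parental mCh/rL line. Of 9 stroma and lung markers 7 lay below the filter, and these stayed between 3.4 and 12.4 in every line. Of those above it, Ager was at 9.68 to 16.1 and Pdgfra at 35.4 to 374. The sums over all 9, which thus differed mainly through Pdgfra, were 110 to 269 in TV-LuM, 93.2 to 350.5 in AxLN-LuM, 147 to 218 in AxLN, 256.5 to 433 in MFP and 155 to 161 in the parental lines. Of the sub-clones with the lowest mitotic medians, AxLN-LuM 5 d14 had an immune sum of 295 and a stroma sum of 123, AxLN 2 d7 had 127 and 155, and AxLN 1 d7 had 203 and 213, against 147 and 155 in the parental mCh/rL line. The part of these cells in any result was not tested.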

How the data were processed

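The authors hybridized RNA of 48 cultures to 2 plates of Affymetrix Mouse Gene ST arrays and normalized each plate by RMA in Affymetrix Expression Console, then scaled and combined the plates; the deposited values are linear intensities between 1.11 and 10561.01 (median of an array 8.53 to 9.15). The plate of 12 arrays is in the labels, and that of the other 36 was taken from their column order and checked against the values. Here log2 intensities were used after subtracting the mean of the parental arrays on the same plate. Probe sets with 1 gene symbol were kept, the brightest for each protein-coding gene, at or above the 50th percentile (log2 3.11). The sub-clone was the replicate, tested with limma 3.58.1 (R 4.3.3) and Benjamini-Hochberg adjustment over 11565 genes; single sub-clones were tested over their cultures. The scripts were tested on simulated data. The named genes are Plk1, Cdca3, Fam83d, Espl1, Foxm1, Mybl2, the 2 largest and the smallest AxLN differences of each class, and up to 4 other genes of mitosis. Genes, lists and tests were chosen with earlier results of these data known. Alternatives changed the baseline, normalization, filter, probe set choice, plate term, samples, unit of replication and left-out sub-clones. Why arrays were marked removed is not given in the sources used here.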

Additional observations from a re-analysis of the deposited data

Results flagged for a closer look

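A sample far from the rest of its group was looked for in 112 groups (28 quantities), and 20 stood apart; chance alone gives about 1 in 20 groups. Of these, 17 are AxLN-LuM 5 d14, whose arrays the titles mark as removed. Its median over all 54 genes was -1.68, against -0.11 to 0.04 in the other AxLN-LuM sub-clones. By class it was -1.68 for kinases, -1.54 for kinetochore genes, -1.89 for kinesins, -1.58 for spindle genes, -1.39 for condensins and chromosome proteins and -1.71 for regulators. Among named genes it stood apart for Plk1 (-2.30), Cdca3 (-2.09), Fam83d (-2.54), Dlgap5 (-2.04), Ncapd2 (-1.99), Kif23 (-1.93), Mki67 (-1.78), Pttg1 (-1.76), Kif18a (-1.42) and Bub1 (-0.94). The other 3 were single parental arrays on plate 2. In mCh/rL replicate 1 the kinetochore median was -0.10, against -0.03 to -0.02 in the other mCh/rL arrays, and Dlgap5 was -0.16, against -0.04 in each of the others. In GFP/fL replicate 2 Aurkb was -0.079, against 0.12 to 0.13 in the other GFP/fL arrays.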

How the results depend on the processing

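Of the values that answer a comparison, 391 kept their direction and size under the alternatives, 24 moved and 4 turned sign. With all mapped arrays, the removed sub-clones included, the median of the 54 genes became -0.079 in AxLN minus the mean of AxLN-LuM and MFP, -0.28 in AxLN minus MFP, -0.11 in AxLN-LuM minus AxLN, -0.42 in AxLN-LuM minus MFP, 0.28 in TV-LuM minus AxLN-LuM and -0.43 in AxLN-LuM minus the parental lines. With AxLN-LuM 5 d14 alone put back it was -0.19 in AxLN minus the mean of the others, -0.0065 in AxLN-LuM minus AxLN, 0.28 in TV-LuM minus AxLN-LuM, -0.42 in AxLN-LuM minus MFP and -0.43 in AxLN-LuM minus the parental lines; putting single sub-clones back was chosen after seeing the data. Leaving out 1 sub-clone at a time, the median ranged from 0.14 to 0.35 in TV-LuM minus AxLN and from -0.54 to -0.35 in AxLN minus the parental lines. With plate as a covariate, limma called 10 genes lower in AxLN minus the mean of the others and 3 higher in AxLN-LuM minus AxLN (0.389% and 0.173% of all genes), against 0 in each main comparison. That fit had 7 residual degrees of freedom against 5 in the main fit, where a plate term alone would leave fewer. Its units differed too: each line on each plate was a unit, so MFP 1, which lies on both plates, counted once for each. Both parental lines also entered as units, once for each plate, while the main fit held none. The cause of the added calls was not tested. Treating arrays as replicates, which counts cultures of 1 sub-clone as independent, called 48 genes lower in AxLN minus the mean of the others, 45 lower in AxLN minus MFP, 44 higher in AxLN-LuM minus AxLN (15.4%, 10.4% and 16.2% of all genes) and 2 in AxLN-LuM minus MFP, 1 each way (5.13% lower and 3.55% higher). A random block for each sub-clone gave 34, 10 and 27 in the first 3 of these (2.22%, 0.553% and 2.12%). With each sub-clone's own parental line as the baseline, 7 genes fell in AxLN 1 d14 and 6 in AxLN-LuM 1 d14, (13.9% and 20.3% of all genes), against 13 and 10 with both lines (14.5% and 21.7%).

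With the replicate number of the labels as a block, the counts over arrays were 46 lower, 41 lower, 42 higher and 1 lower (14%, 8.74%, 15% and 4.2% of all genes). Deviations of same-numbered arrays on a plate correlated from -0.08 to 0.06 (median 0.012), against -0.07 to 0.07 (median -0.005) for arrays of different number. No clear pairing by number was seen in these arrays. The check left out MFP 1 and the parental arrays, so it cannot exclude pairing.

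Among named genes the AxLN difference turned sign for 4. Bub1 was 0.023, Ndc80 0.061, Pttg1 0.092 and Ect2 0.13 with all mapped arrays. With AxLN-LuM 5 d14 put back, Ndc80 was 0.044, Pttg1 0.024 and Ect2 0.085. Leaving out 1 sub-clone at a time, Ndc80 ranged from -0.30 without AxLN 2 d14 to 0.029 without AxLN 2 d7, and Ect2 from -0.10 without AxLN 2 d14 to 0.050 without MFP 2, turning sign also without AxLN 1 d7, AxLN-LuM 1 d36 or AxLN 2 d7. Ect2 was 0.015 with plate as a covariate and 0.029 with AxLN 1 d14 put back. The few sub-clones in each group limit these comparisons, and array intensity gives no molecule count.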

Other observations

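The other genes of mitosis in AxLN-LuM 5 d14 spread more widely than the 54 genes of the report: 65 of 69 were below the parental mean, with a median of -0.87. Ccnb2, the B-type cyclin that partners Cdk1, was the lowest at -2.31. Against AxLN-LuM 1 d14, 61 of the 69 fell and 1 rose at limma adjusted p under 0.05 with cultures as replicates (26.5% of all genes fell), with a median of -0.94. No test compared the 2 lists.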
